A study of Sorghum bicolor and Setaria italica and Zea mays with 20 samples.

Results

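The open chromatin of whole leaves was compared between *S. bicolor* (sorghum) and *Z. mays* (maize), 2 related grasses that both use C4 photosynthesis, using DNaseI-seq. Members were the DNaseI-hypersensitive sites (DHSs) and the digital genomic footprints (DGFs) that the whole-leaf lists of these species place on their numbered chromosomes. They comprise 38336 DHSs and 139429 DGFs of *S. bicolor* and 43539 DHSs and 79378 DGFs of *Z. mays*, which together are 81875 of the 281868 DHSs and 218807 of the 985672 DGFs listed for all tissues and species of the series. A further 690 DHSs of *S. bicolor* and 329 of *Z. mays* lie on unplaced or organellar sequences and were left out. Of the 20 samples of the series, 3 are whole leaf of *S. bicolor* and 2 are whole leaf of *Z. mays*. In both species leaves of seedlings were taken at 18 days, 4 to 6 h into the light period. The labels name the third leaf, whereas the methods name the third and the fourth. Each sample pooled leaves of many plants. No transgene, treatment or cultivar is stated for either group in the sources used here. A whole leaf mixes mesophyll, bundle-sheath, epidermal and other cells, and since the lists hold positions and no transcripts, the tissue could not be checked against markers.

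DNaseI is an enzyme that, used sparingly on nuclei, cuts DNA where it is not wrapped in nucleosomes, and DNaseI-seq reads the positions of these cuts. Regions with many cuts, the DHSs, usually mark promoters, enhancers and other regulatory DNA, and a DGF is a short stretch inside a DHS that a bound protein shielded from cutting. Maize and sorghum share most of their gene families. The maize lineage went through a further doubling of its genome after it parted from that of sorghum, and the DNA between maize genes was expanded by transposable elements, so that maize genes often stand as islands between long blocks of repeats.

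The replicates of each species were combined into 1 DHS list and 1 DGF list before deposit, so no value below has a replicate error and no difference between the species could be tested. Differences are described with 95% Wilson intervals of shares, which reflect only how many intervals were counted and treat neighbouring intervals as independent, and with the range over the 10 chromosomes of each species, which are not replicates. The lists carry no read counts, so the depth behind them could not be taken from them, and read numbers given elsewhere by the study were not used. The study describes the *Z. mays* footprints as not saturated at the depth sequenced, unlike those of *S. bicolor*, and a *Z. mays* library as low in complexity, which needs the reads and was not checked here. Species, number of samples and depth cannot be told apart in these lists. Reads of low mapping quality were removed by the authors, and the sequence where reads could not be placed uniquely is not marked in the lists. Such sequence stayed in the chromosome lengths and in the gaps, and its part in the shares and gaps below was not tested. Whether the deposited DGFs had passed the study's filter for the cutting bias of DNaseI is not known here. DHS scores rank DHSs within a list and were not set against each other between lists. No annotation or genome sequence of the assemblies Sbicolor_255_v2.0 and Zmays_284_AGPv3 was used here, so regions are given by position, without genes or bases.

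The *S. bicolor* chromosomes had about the same number of DHSs as those of *Z. mays* on a far smaller length. Chromosome length, taken as the largest position listed for the species, summed to 658 Mb in *S. bicolor* and 2059 Mb in *Z. mays*, 3.13 times as long. The number of DHSs was 1.14 times as high in *Z. mays*, and the DNA they covered was 1.52 times as long, at 96.0 Mb compared with 63.1 Mb. DHSs therefore took up 9.58% of the *S. bicolor* chromosomes and 4.66% of those of *Z. mays*, a ratio of 2.06. There were 58.2 DHSs per Mb in *S. bicolor* and 21.1 in *Z. mays*. For DGFs the contrast was wider, with 212 and 38.5 per Mb, a ratio of 5.49.

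The difference in accessible share held for each chromosome of one species against each of the other. In *S. bicolor* the share ran from 7.75% on chromosome 7 to 12.9% on chromosome 1, with a median of 9.12%. In *Z. mays* it ran from 4.33% on chromosome 4 to 5.07% on chromosome 1, with a median of 4.64%. The lowest chromosome of *S. bicolor* was thus above the highest of *Z. mays*. The density of DHSs did not overlap either, from 48.6 per Mb on chromosome 7 to 76.2 on chromosome 1 of *S. bicolor*, and from 19.6 on chromosome 7 to 23.0 on chromosome 8 of *Z. mays*.

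**Figure D1:**
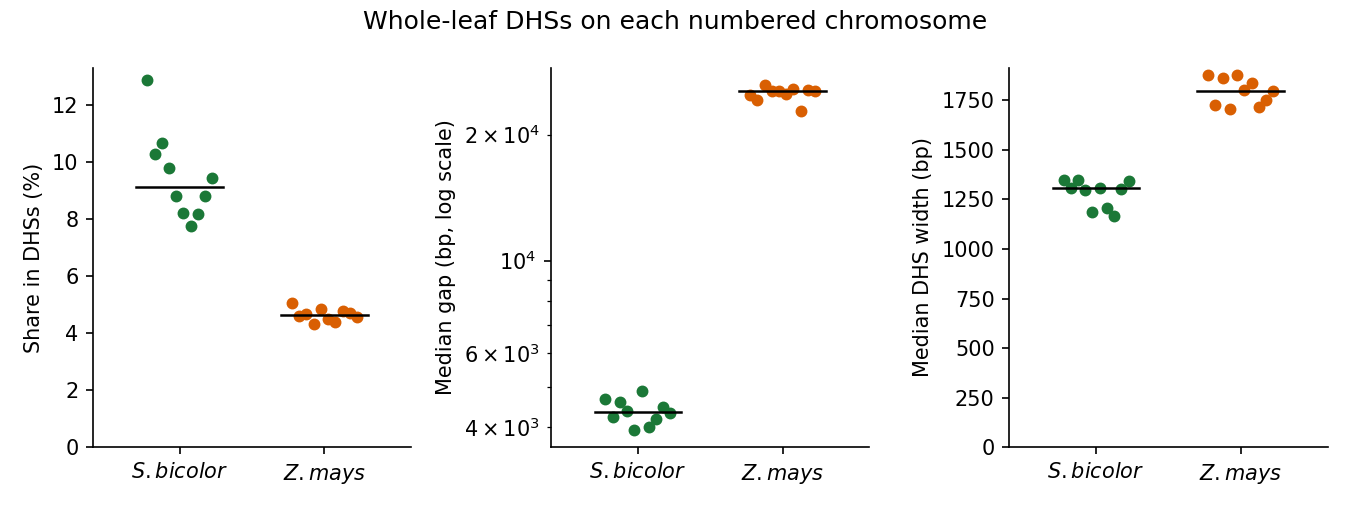
Share of each numbered chromosome in DHSs (%), median gap between neighbouring DHSs (bp, log axis) and median DHS width (bp) for whole leaf, with 1 point per chromosome, 10 in each species, ordered from left to right by chromosome number, and the median over chromosomes as a black line. In each panel the points of the species do not overlap, and *S. bicolor* chromosome 1 stands highest in its group at 12.9% in DHSs.

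The gap from one DHS to the next was 5.72 times as long in *Z. mays* by its median, at 24988 bp compared with 4369 bp. This exceeds the ratio of the chromosome lengths. Means were closer together, at 45076 bp in *Z. mays* and 15526 bp in *S. bicolor*. The median gap per chromosome lay between 3934 bp on chromosome 5 and 4874.5 bp on chromosome 6 of *S. bicolor*, and between 22748 bp on chromosome 8 and 26294 bp on chromosome 3 of *Z. mays*.

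The short and the long ends of the gap distribution differed far less than its middle. At the 10th percentile the gaps were 352 bp in *S. bicolor* and 497 bp in *Z. mays*. The upper quartiles were 13900 and 60197 bp. At the 99th percentile the gaps were 177347 and 301759 bp, so the species were again within a factor of 1.70 of each other. Of the *S. bicolor* gaps, 22.7% (22.3% to 23.1%) were under 1 kb, compared with 15.1% (14.8% to 15.4%) of the *Z. mays* gaps. Gaps of 50 kb or more made up 4.58% and 30.5%.

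On a log scale the *Z. mays* gaps had a low shelf of short values and a single high peak. The class from 39.8 to 63.1 kb alone held 13.4% of the *Z. mays* gaps and 2.48% of those of *S. bicolor*. Below 15.8 kb no class of the same log width held more than 4.96% of the *Z. mays* gaps. In *S. bicolor* the classes from 2.51 to 25.1 kb each held between 9.62% and 10.2%, and the next class fell to 6.08%, so the distribution was a broad plateau with a sharp edge.

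**Figure D2:**
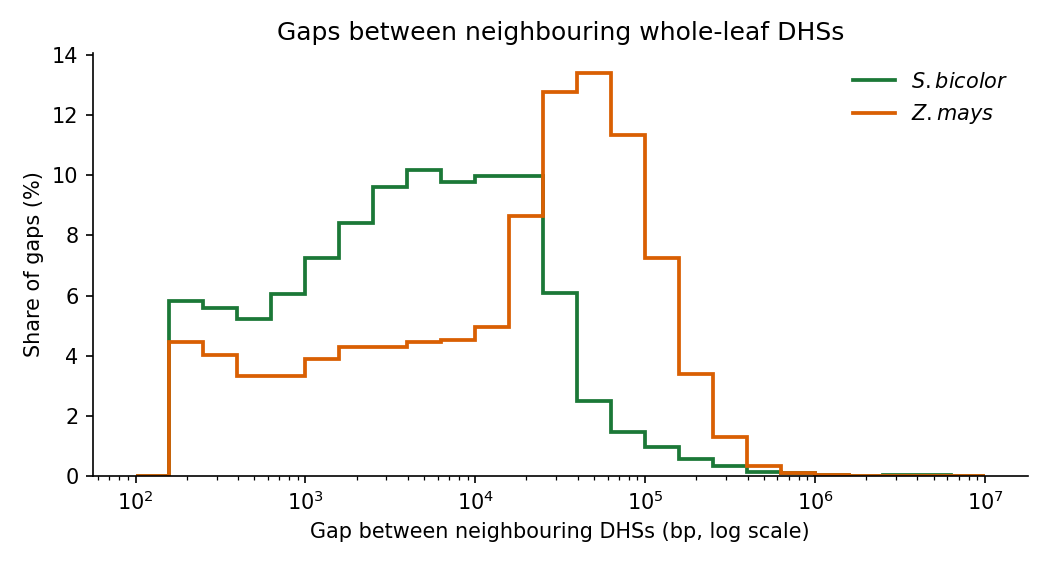
Share of gaps (%) between neighbouring whole-leaf DHSs by length (bp, log axis), in classes of equal log width, over 38326 gaps in *S. bicolor* and 43529 in *Z. mays*. *Z. mays* peaks at 13.4% between 39.8 and 63.1 kb, where *S. bicolor* has 2.48%.

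When each gap was scaled by the mean gap of its own list, the order at the short end depended on the limit. Gaps shorter than 0.1 of the mean made up 29.6% in *S. bicolor* and 28.6% in *Z. mays*, whereas gaps shorter than 0.05 of the mean made up 19.2% and 22.2%. The shortest gaps were alike in bp, at 172 and 165 bp, although the means differ. A limit of 0.01 of the mean therefore lay below every gap of *S. bicolor* but took in 9.35% of those of *Z. mays*. Gaps shorter than the mean made up 77.4% and 66.6%. The long end stayed apart, since 455 gaps of *S. bicolor* (1.19%) and 127 of *Z. mays* (0.292%) were at least 10 times the mean. The SD of the gaps was 5.16 times their mean in *S. bicolor* and 1.47 times in *Z. mays*.

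The very longest stretches without a listed DHS were in the smaller genome. How far reads could be placed uniquely in these stretches was not tested. Gaps of 1 Mb or more numbered 23 in *S. bicolor* and took up 55.2 Mb, which is 8.39% of the chromosome length. In *Z. mays* there were 7, which took up 8.67 Mb or 0.421%. The 3 longest of *S. bicolor* were 5399734 bp on chromosome 1 from 33066974 to 38466707, 4955243 bp on chromosome 4 from 27241194 to 32196436, and 4837384 bp on chromosome 10 from 28811335 to 33648718. Those of *Z. mays* were 1705340 bp on chromosome 8 from 48877494 to 50582833, 1320010 bp on chromosome 7 from 57969386 to 59289395, and 1167546 bp on chromosome 6 from 9506040 to 10673585. Gaps of 200 kb or more still took up more of the chromosome length in *S. bicolor*, at 25.3% compared with 19.1%. At a limit of 100 kb the order turned, with 46.2% of the length in 5368 gaps of *Z. mays* and 35.2% in 802 gaps of *S. bicolor*.

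Along the chromosomes, the DHSs of *S. bicolor* were concentrated at the ends and those of *Z. mays* were spread more evenly. With each chromosome divided into 20 equal parts, the density in *S. bicolor* was highest in part 2, at 98.4 DHSs per Mb, and lowest in part 10, at 6.17, which was 0.106 of its mean. In *Z. mays* it was highest in part 19, at 29.2 per Mb, and lowest in part 9, at 12.4, which was 0.586 of its mean. In part 10 the densities of the species therefore stood in the reverse order, with 6.17 in *S. bicolor* and 14.1 in *Z. mays*.

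**Figure D3:**
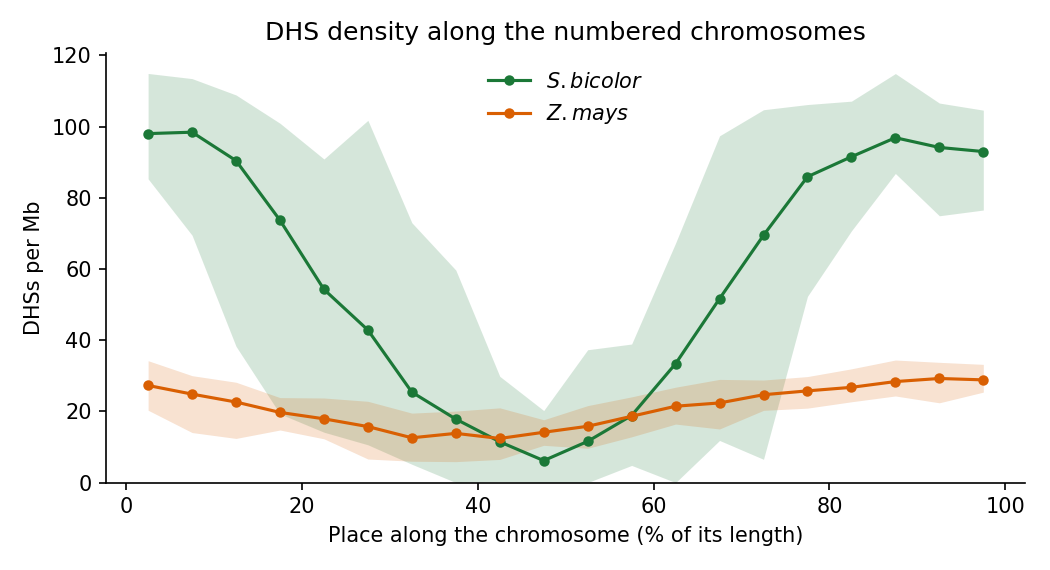
DHSs per Mb along the numbered chromosomes, in 20 equal parts of each chromosome (% of its length), with points for the 10 chromosomes of a species together and shading from the lowest to the highest chromosome. *S. bicolor* falls from 98.4 in part 2 to 6.17 in part 10, and *Z. mays* stays between 12.4 and 29.2.

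The accessible share followed the same contrast. Over the outer 40% of chromosome length, *S. bicolor* had 15.0% in DHSs and *Z. mays* had 5.90%. Over the middle 20% the shares were 1.91% and 3.11%, so that there *Z. mays* had the larger share in DHSs. The outer share was 7.83 times the middle share in *S. bicolor* and 1.89 times in *Z. mays*. Of all DHSs, the outer zone held 63.2% and the middle zone 4.12% in *S. bicolor*, compared with 49.1% and 14.4% in *Z. mays*.

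Median gaps, median widths and footprint density varied less between these zones than the accessible share did, but the long gaps of *S. bicolor* did not. From the outer to the middle zone the median gap lengthened from 4577 to 6102 bp in *S. bicolor*, and from 22351 to 33766 bp in *Z. mays*. The 90th percentile of the gaps went from 23632 to 185273 bp in *S. bicolor* and from 91773 to 163788 bp in *Z. mays*, so that in the middle zone the smaller genome had the longer gaps at this percentile. Median width fell from 1308 to 1095 bp over the same zones in *S. bicolor* and from 1872 to 1604.5 bp in *Z. mays*. Footprint density was 1.12 times as high in the outer zone as in the middle zone of *S. bicolor* and 1.11 times in *Z. mays*.

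In 1-Mb bins the DHSs were more clustered in *S. bicolor*. The densest 10% of its bins, 66 of 664, held 19.3% of the DHSs (18.9% to 19.7%), and in *Z. mays* the densest 206 of 2063 held 17.1% (16.8% to 17.5%). The least-filled bins set the species further apart than the fullest. In *S. bicolor* 30 bins (4.52%) had no DHS, and in *Z. mays* 2 (0.0969%). The Gini coefficient, which is 0 when every bin holds the same number, was 0.385 in *S. bicolor* and 0.232 in *Z. mays*, and the SD over the mean was 0.673 and 0.408. The counts of neighbouring 1-Mb bins had a Pearson r of 0.91 over 654 pairs of bins in *S. bicolor* and of 0.59 over 2053 pairs in *Z. mays*, where pairs share bins and the mean count per bin differs between the species.

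The contrast in neighbouring bins went with bin size. With 100 equal bins per chromosome in both species, r was 0.91 and 0.82 over 990 pairs, and with 5-Mb bins it was 0.74 over 126 pairs and 0.75 over 407, so that the order turned. The Gini coefficients kept their order, at 0.406 and 0.245 with 100 equal bins and 0.370 and 0.194 with 5-Mb bins. The densest 1-Mb bins of *S. bicolor* were chromosome 5 from 57000001 to 58000000 with 125 DHSs, chromosome 4 from 8000001 to 9000000 with 124, and chromosome 3 from 10000001 to 11000000 with 122. DHSs took up 17.2%, 19.02% and 19.8% of these bins, which held 381, 427 and 453 DGFs. In *Z. mays* they were chromosome 8 from 166000001 to 167000000 with 48 DHSs, chromosome 5 from 208000001 to 209000000 with 46, and chromosome 4 from 185000001 to 186000000 with 45. DHSs took up 8.31%, 7.87% and 8.47% of these bins, which held 57, 69 and 71 DGFs. The fullest bin of *Z. mays* had fewer DHSs than the median bin of *S. bicolor*, at 60.

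At the scale of single sites, DHSs stood in runs in both species. Runs of neighbours less than 1 kb apart took in 39.4% of the DHSs of *S. bicolor* (15086 in 6393 runs) and 28.1% of those of *Z. mays* (12236 in 5665 runs). Runs of 3 or more took in 14.7% and 5.77%. With a limit of 5 kb the shares were 77.9% and 51.8%, which left 48.2% of the *Z. mays* DHSs with no neighbour within 5 kb on either side. The longest run in *S. bicolor* had 8 DHSs of 206 to 2008 bp on chromosome 6 from 42025912 to 42034157, separated by 176 to 772 bp, and 8 of the 8 held a DGF. The longest in *Z. mays* had 6 DHSs of 796 to 1724 bp on chromosome 5 from 63733465 to 63742104, separated by 189 to 449 bp, of which 3 held a DGF. Another run of 6 in *Z. mays* comes later in chromosome order and is not described.

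How isolated a DHS was went with its width in opposite ways up to 100 kb. In *S. bicolor* the median width was 1322 bp for DHSs with a neighbour under 1 kb away, 1258.5 bp for those with the nearest neighbour 5 to 20 kb away, and 1005 bp at 20 to 100 kb. In *Z. mays* it was 1688.5, 1778 and 2009 bp. The DHSs 100 kb or more from any other, 178 and 850 in number, were narrower in both species, at 733.5 and 1462.5 bp. DHSs 20 to 100 kb from the nearest neighbour were 2.64% of the *S. bicolor* list and 24.7% of the *Z. mays* list, and 14.5% and 26.6% of them were among the highest-scoring 20% of their list. Footprint density hardly moved with isolation, from 2.03 to 2.26 DGFs per kb over the distance classes of *S. bicolor* and from 0.790 to 0.847 over those of *Z. mays*. The share of DHSs with a DGF moved more. In *S. bicolor* it was 94.5% under 1 kb, 90.9% at 20 to 100 kb and 84.3% (78.2% to 88.9%) at 100 kb or more. In *Z. mays* it was 53.4%, 59.2% and 51.2% (47.8% to 54.5%) in these classes.

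DHSs were wider in *Z. mays*, with a median of 1792 bp compared with 1291 bp in *S. bicolor*, a ratio of 1.39. The median per chromosome ran from 1707 to 1879 bp in *Z. mays* and from 1168 to 1349 bp in *S. bicolor*, with no overlap. The ratio was 1.43 at the 10th percentile of width, 1.32 at the 90th and 1.14 at the 99th, so the widest DHSs were the most alike. DHSs of up to 500 bp were 10.6% of the *S. bicolor* list and 4.07% of the *Z. mays* list, and those over 5000 bp were 2.62% and 5.98%.

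At equal rank the width difference was smallest among the highest-scoring DHSs. Deciles here divide each list by score, from 1, the highest, to 10. Equal rank did not mean equal fold enrichment as given by the authors. Its median was 7.49 in decile 1 and 3.32 in decile 10 of *S. bicolor*, and 18.1 and 7.06 in those of *Z. mays*. In decile 1 the medians were 2085.5 bp in *S. bicolor* and 2373 bp in *Z. mays*, a ratio of 1.14. The ratio was largest in decile 6, at 1.51, with 1247 and 1879 bp, and it was 1.48 in the lowest decile, with 705 and 1041 bp.

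Footprints went the other way from width, with more of them in the narrower DHSs of *S. bicolor*. There were 2.21 DGFs per kb of DHS in *S. bicolor* and 0.810 in *Z. mays*, a ratio of 2.73. On single chromosomes the density ran from 2.15 to 2.25 in *S. bicolor* and from 0.764 to 0.841 in *Z. mays*. At least 1 DGF lay in 94.9% of *S. bicolor* DHSs (94.7% to 95.1%) and in 55.8% of those of *Z. mays* (55.3% to 56.2%), for which it is not known that every listed *Z. mays* DHS was searched.

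Over all ranks, the dependence of footprint density on width had opposite signs. In *S. bicolor* the density fell with each wider class, from 2.88 DGFs per kb in DHSs of up to 500 bp to 2.34 at over 1000 and up to 1500 bp, and 1.90 over 5000 bp. In *Z. mays* it rose with each wider class, from 0.452 to 0.795 and 0.840. The ratio between the species was 6.37 in the narrowest class and 2.26 in the widest.

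Rank by score separated the species more than width did. In *S. bicolor* the density ranged only from 1.93 to 2.35 DGFs per kb over the deciles of the list, lowest in the highest-scoring decile. In *Z. mays* it fell through every decile, from 1.37 to 0.0542. The ratio between the species accordingly rose from 1.42 in the first decile to 40.1 in the last. The share of DHSs with a DGF fell from 98.3% to 85.2% in *S. bicolor* and from 96.7% to 4.34% in *Z. mays*.

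When DHSs of the same width class and the same decile were compared and the classes weighted alike in both species, *S. bicolor* had 2.17 DGFs per kb and *Z. mays* 0.838, a ratio of 2.59. Deciles were set within each list, so that each held the same share of the list in both species. Weighting by rank could therefore move the overall ratio of 2.73 little. The ratio itself went strongly with rank, since at equal width it was 1.40 in decile 1 and 38.5 in decile 10. Classes with at least 20 DHSs in each list numbered 68 of 70, and *S. bicolor* was higher in 68 of the 68. The ratio in single classes ran from 1.13 to 46.1, with a median of 3.11. It lay between 1.13 and 1.54 in the 7 classes of the highest decile and between 28.6 and 46.1 in the 6 classes of the lowest. The closest class was that of over 500 and up to 1000 bp in the highest decile, with 2.44 DGFs per kb over 431 DHSs of *S. bicolor* and 2.16 over 332 of *Z. mays*.

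**Figure D4:**
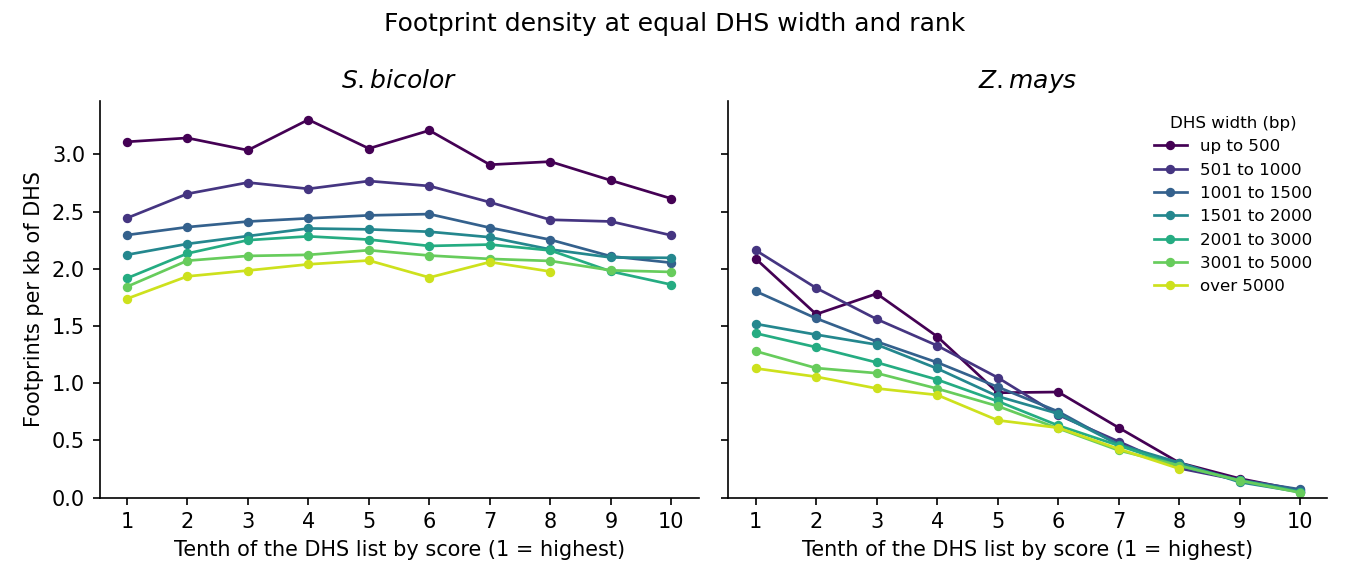
DGFs per kb of DHS by decile of the DHS list by score (1 is the highest) and DHS width class (bp, colours), with *S. bicolor* on the left and *Z. mays* on the right, for the 68 classes with at least 20 DHSs in each list. In each decile the classes up to 500 and up to 1000 bp of *S. bicolor* lie above its wider classes, and in *Z. mays* each line ends below where it starts, with the species 28.6 to 46.1 times apart in the lowest decile.

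At equal rank the opposite signs of the width dependence did not hold. In each of deciles 1 to 8 of *Z. mays*, DHSs over 500 and up to 1000 bp had a higher footprint density than those over 5000 bp, as in *S. bicolor*, although in decile 8 the values were as close as 0.256 and 0.253. In decile 4 they were 1.33 and 0.897. In decile 1 the density fell from 2.16 DGFs per kb in DHSs over 500 and up to 1000 bp to 1.13 in those over 5000 bp in *Z. mays*, and from 2.44 to 1.74 in *S. bicolor*. Width and rank moved together in both species. In *Z. mays* the median width was 2373 bp in decile 1 and 1041 bp in decile 10, and in *S. bicolor* 2085.5 and 705 bp. Footprint density over the deciles fell from 1.37 to 0.0542 DGFs per kb in *Z. mays* and ranged from 1.93 to 2.35 in *S. bicolor*. Where only DHSs with a DGF were counted, the densities at equal width and rank were 2.19 and 1.27, a ratio of 1.72.

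Footprints were densest near the DHS summit, the position with the strongest signal, in both species. Within 50 bp of the summit there were 4.87 DGFs per kb in *S. bicolor* and 2.24 in *Z. mays*, a ratio of 2.17. At 300 to 500 bp the densities were 1.93 and 0.745. At 1000 to 1500 bp they were 1.31 and 0.451, a ratio of 2.91. The decline was thus similar in form and somewhat steeper in *Z. mays*. In decile 1 the density within 50 bp was 6.04 in *S. bicolor* and 4.76 in *Z. mays*. Summits lay in the centre of the DHS in both lists, with medians at 49.8% and 49.7% of its width.

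**Figure D5:**
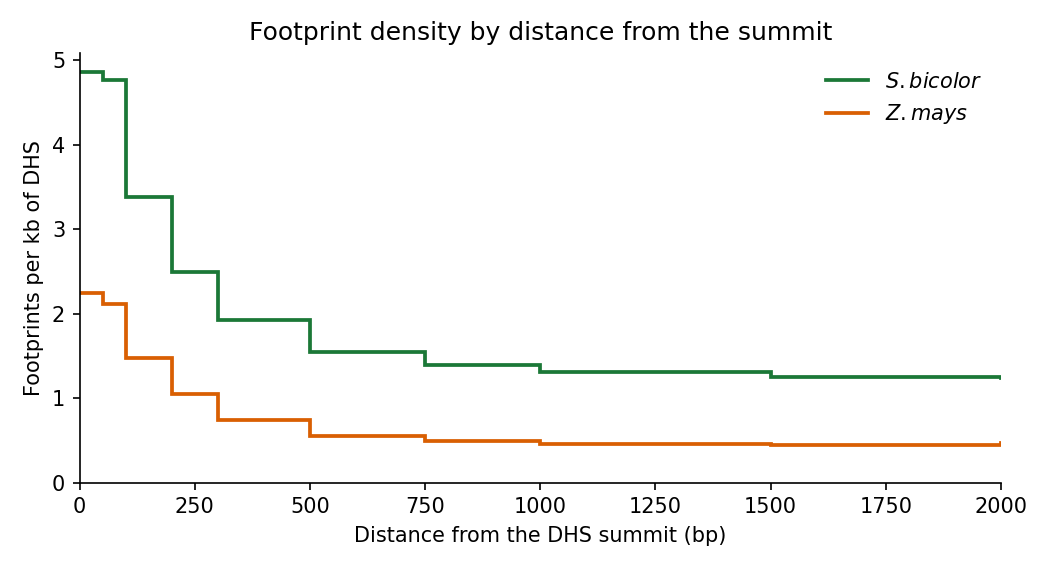
DGFs per kb of DHS by distance from the DHS summit (bp) in the whole-leaf lists, each step being 1 distance class over all DHSs. The density falls from 4.87 to 1.31 DGFs per kb in *S. bicolor* and from 2.24 to 0.451 in *Z. mays* between the first 50 bp and 1000 to 1500 bp.

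The spacing of neighbouring footprints in the same DHS was closer between the species than their number. From start to start the median was 170 bp in *S. bicolor* (quartiles 91 and 349 bp, 103053 pairs) and 161 bp in *Z. mays* (87 and 452 bp, 53454 pairs). Pairs within 100 bp were 28.9% (28.6% to 29.1%) and 31.0% (30.6% to 31.4%).

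The DHSs with the most footprints held 29 DGFs in *S. bicolor* and 17 in *Z. mays*. Those of *S. bicolor* were a DHS of 13175 bp on chromosome 6 from 5525597 to 5538771 with 29 DGFs, and DHSs of 10106 bp on chromosome 1 from 48058899 to 48069004 and of 9900 bp on chromosome 2 from 46639568 to 46649467 with 24 each. Those of *Z. mays* were shorter. They were a DHS of 5315 bp on chromosome 3 from 161679965 to 161685279 and 1 of 5648 bp on chromosome 8 from 170414102 to 170419749 with 17 DGFs each, and 1 of 7683 bp on chromosome 1 from 3272109 to 3279791 with 16. Per kb, the first of *Z. mays* had 3.20 DGFs and the first of *S. bicolor* had 2.20. These DHSs were picked by their number of DGFs and differ in width, so their densities do not compare the species.

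The footprints of *Z. mays* also carried weaker scores. The Wellington score, which is more negative for a footprint with stronger protection, had a median of −9.16 in *Z. mays* and −16.2 in *S. bicolor*. With footprints kept only at or below −10, the densities were 0.302 and 2.10 DGFs per kb, and at or below −15 they were 0.0474 and 1.31, so the ratio rose from 6.96 to 27.7. The score of a footprint draws on the number of cuts around it, and the lists carry no depth. The part of depth in the footprint differences was not tested.

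The *Z. mays* footprint list also stood apart in its make-up. Its names start at number 32407, although 43868 DHSs were deposited with it, whereas the names in each of the other lists start at 1 more than the number of DHSs deposited. In addition, 1648 of its DGFs (2.08%) lay outside the deposited DHSs, whereas 0 of *S. bicolor* did. The sources used here do not say whether each deposited *Z. mays* DHS was searched, so the share of DHSs with a DGF, and its fall with rank, hold for the lists as deposited. DGFs were listed in each decile of the *Z. mays* DHSs, down to 298 in decile 10. The 1648 DGFs outside had a median distance of 5528.5 bp from the nearest deposited DHS. Of these, 647 (39.3%, 36.9% to 41.6%) lay in a bundle-sheath DHS of *Z. mays*. The bundle-sheath DHSs took up 4.996% of the chromosome length, and the share of all whole-leaf DGFs within them was not computed. The median score of the DGFs outside, −9.16, equalled that of the DGFs inside. The part of this list's make-up in the results was not tested.

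The bundle-sheath lists of the same species, made from strands isolated from leaves of the same age with 2 samples each, gave another pair of values. The accessible share was 8.96% in *S. bicolor* and 4.996% in *Z. mays*, a ratio of 1.79, and the median gaps were 4867 and 24318 bp. Median widths were 1341 and 1690 bp, a ratio of 1.26. On these measures the order of the species was that of the whole leaf, with each ratio somewhat smaller. The ratio of footprint densities was smaller by more, since at equal width and rank there were 2.11 and 1.61 DGFs per kb, a ratio of 1.31 compared with 2.59 in whole leaf. In the highest decile the ratio was 1.03, with 2.02 and 1.96 DGFs per kb, and in the lowest it was 6.20.

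Whole leaf of *S. italica*, another C4 grass, had a listed chromosome length of 401 Mb. It stood on the *S. bicolor* side for accessible share, median gap, median width and footprint density. Clustering, zones and runs were not compared for it. DHSs took up 12.0% of its 9 numbered chromosomes, the median gap was 3825 bp and the median width 995 bp. At equal width and rank it had 2.43 DGFs per kb compared with 0.867 in *Z. mays*, a ratio of 2.80. The value for *S. bicolor* was 0.920 of that for *S. italica*, with 2.26 and 2.46 DGFs per kb.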

How the data were processed

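Whole-leaf DNaseI-seq of 3 *S. bicolor* and 2 *Z. mays* samples was analysed. The authors mapped reads with bowtie2 to Sbicolor_255_v2.0 and Zmays_284_AGPv3, removed those of low mapping quality with SAMtools, which leaves out most reads that map equally well to several places, found peaks with MACS2, set the final list by the irreproducible discovery rate, and found footprints with Wellington on pooled reads. The submitters' processing notes name Bowtie2, MACS2 and B73 RefGen_v3, and tool versions are not given in the sources used here. Peak names in the deposited lists mark them as peaks of pooled reads. In the deposited DHS lists each DHS carries the authors' peak score, fold enrichment (a ratio), −log10 p-value and summit offset, and each deposited DGF carries a Wellington score. The authors' filter on naked DNA was not repeated. The lists of the series hold 985672 DGFs, more than the study reports for its tissues and species after that filter. It is therefore not known here whether the deposited DGFs had passed it. Their lists of DGFs that differ between tissues were not used, and 0 columns of other samples were left out.

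DHSs were ranked by score into 10 classes and divided at widths of 500, 1000, 1500, 2000, 3000 and 5000 bp. A DGF was assigned to a DHS by an overlap of at least 1 bp. Footprint density at equal width and rank is the mean over classes with at least 20 DHSs in each list, weighted by the DHS length of both species. Positions count from 1. The regions given by position are the 3 longest gaps, the 3 densest 1-Mb bins, the 3 DHSs with the most DGFs, and the longest run, in each species. The members and lists were chosen with earlier results of these data known. Python 3.11.15, NumPy 2.4.6, pandas 2.3.3, SciPy 1.17.1 and matplotlib 3.10.9 were used, and the functions were tested on simulated data. Alternatives changed list length, bins, rank, width classes, zone, joining of DHSs, chromosome length and footprint limits.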

Additional observations from a re-analysis of the deposited data

How the results depend on the processing

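Alternatives were run for 6 results, namely accessible share, median gap, share of DHSs in the densest bins, median width, share with a footprint, and footprint density at equal width and rank, with 2 to 7 settings each and 19 in all. The order of the species was kept in the 19. Of these, 1, counting only DHSs with a DGF, was chosen after seeing the data. Values are given for *S. bicolor* and then *Z. mays*. With the 30000 highest-scoring DHSs of each list, the accessible share was 8.27% and 3.60%, the median gap 5803.5 and 38565 bp, the share of DHSs in the densest 10% of bins 21.9% and 18.7%, and the median width 1450 and 2078 bp. With DHSs under 500 bp apart joined, the median gap was 6030.5 and 30086 bp and the median width 1452 and 2001 bp. In the outer 40% of chromosomes the median gap was 4577 and 22351 bp. The densest 10% of bins held 19.97% and 18.6% of DHSs with 500-kb bins and 20.8% and 18.1% with 100 equal bins per chromosome. With footprints kept only at or below the pooled median Wellington score of −13.4, the share of DHSs with a footprint was 77.3% and 13.1%. Footprint density at equal width and rank was 1.53 and 0.0923 DGFs per kb under that limit, 2.19 and 0.828 with rank by fold enrichment, 2.22 and 0.888 in the outer 40%, 2.19 and 1.27 over DHSs with a footprint, and 1.03 in *Z. mays* with the top 30000 DHSs in classes of 3000. The ratio between the species thus depended on the footprint limit, from 2.59 to 16.5. It fell to 2.12 with the top 30000 DHSs in classes of 3000 and to 1.72 over DHSs with a footprint. The cause was not tested. The other 9 values moved by less than their counting interval.

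No paired analysis was possible because the replicates of each species were combined before deposit, and leaving out a replicate could not be run for the same reason. Without replicates, none of these differences can be set against replicate error.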
